A study of Drosophila melanogaster with 24 samples.

Results

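The peaks described here are those that 12 lists of V5 chromatin immunoprecipitation peaks from Drosophila melanogaster placed on chromosome 4 or on the heterochromatin scaffolds XHet, 3LHet, 3RHet and YHet of the dm3 build. They were chosen by chromosome name alone, and they number 3059 of the 58157 peaks in all lists. Chromosome 4 held 2809 of them (91.8%), XHet 159, 3RHet 68, 3LHet 19 and YHet 4. The main arms, 2L, 2R, 3L, 3R and X, held 55039 peaks and are used as the comparison.

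The study asked where the clock proteins CLK and CYC bind in different tissues. One strain carried CLK with a V5 tag and another carried CYC with the same tag, and untagged w- flies put through the V5 pull-down served as the mock. Flies of every group had an age of 5 to 10 days, lived at 25 °C in cycles of 12 h light and 12 h dark, and were frozen at ZT13, which is 1 h after lights-off. Each of the 6 groups (head or body with CLK, CYC or mock) had 2 pull-down lists, from replicates that the design text calls independent. Fixation took 10 min in 1% formaldehyde, and sonication took 6 rounds for heads but 4 for bodies, so that step differed with the tissue. Whole heads and whole bodies mix many cell types, and the labels do not give the promoter that drove the tagged proteins.

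CLK and CYC are the paired basic helix-loop-helix activators of the Drosophila clock, and they bind E-box sequences near genes that cycle through the day. Chromosome 4 is the small dot chromosome of the fly: much of it carries marks of heterochromatin, yet its distal arm is dense in expressed genes. The Het scaffolds of dm3 are pieces of the repeat-rich sequence around the centromeres and of the Y chromosome that could be placed on a chromosome. The Y is present only in males. Repeated sequence is hard to map with short reads, and the sources used here do not say how reads with several possible places were treated.

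The lists differed greatly in length, from 73 peaks in body mock replicate 1 to 13729 in head CLK replicate 1. Read counts are not in the lists and sequencing depth is therefore unknown, and a place with no peak is only a place where none was called. Each peak carries 2 scores of the authors' own with no name or known scale. Both were at least 2 for every peak. Peaks were ranked within a list by the first score, and a relative rank of 0 is the best peak and 100 the worst. Shares of body lists, which rest on few peaks, are given with exact Clopper-Pearson 95% intervals. For a count of 0 the limit given is that of 3 peaks over the length of the list. Intervals and limits cover counting error only.

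By number, chromosome 4 held many peaks in heads, the untagged lists included, and few in bodies. Relative to list length it was sparser than the main arms only in the tagged body lists. In heads, CLK replicates 1 and 2 held 505 and 64 chromosome 4 peaks, which were 3.68% and 1.39% of their lists. CYC replicates 1 and 2 held 989 and 183, or 8.18% and 3.77%. Mock replicates 1 and 2 held 915 and 107, or 7.57% and 6.20%. Of the 4 tagged head lists, CYC replicate 1 had a larger share than both mock lists and the other 3 had a smaller one.

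In bodies, CLK replicates 1 and 2 held 6 and 2 chromosome 4 peaks, or 0.247% (95% interval 0.0906 to 0.536%) and 0.173% (0.0210 to 0.625%) of their lists. CYC replicates 1 and 2 held 14 and 8, or 0.353% (0.193 to 0.591%) and 0.627% (0.271 to 1.23%). Mock replicate 1 held 14 among only 73 peaks, a share of 19.2% (95% interval 10.9 to 30.1%), and mock replicate 2 held 2 of 175, or 1.14% (0.139 to 4.07%). All 4 tagged body shares lay below both body mock shares and below every head share, though their intervals overlapped that of body mock replicate 2. Body mock replicate 1 stood apart from every other list.

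**Figure D1:**
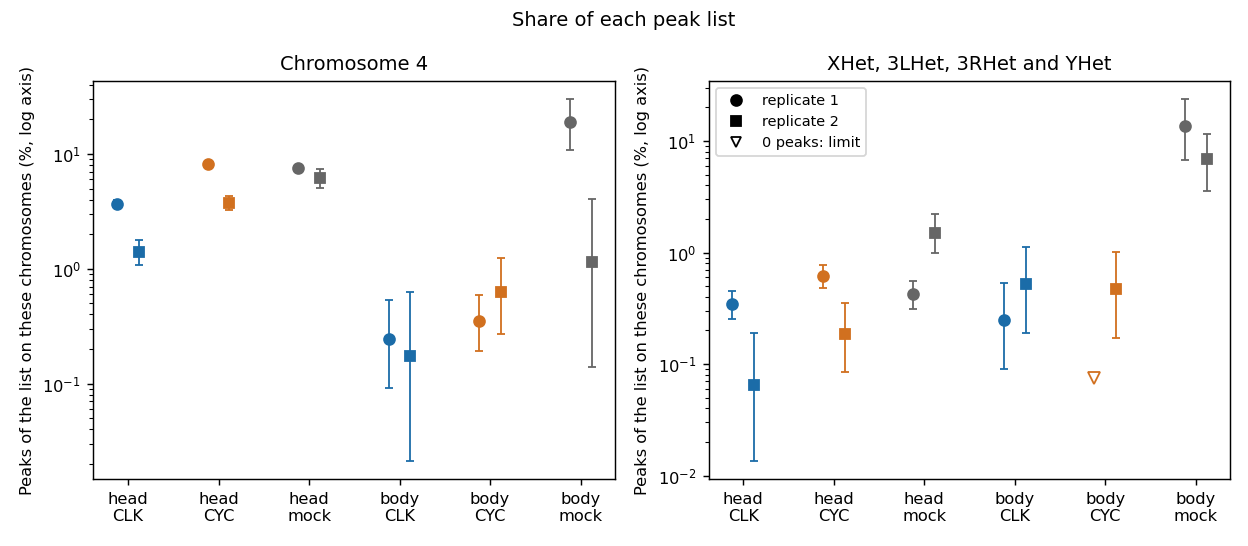
Share of each list's peaks, in percent on a log axis, that lay on chromosome 4 or on the 4 Het scaffolds. Each point is 1 of the 12 lists, grouped by tissue and by CLK, CYC or mock; the tagged body lists sit lowest on chromosome 4, between 0.173% and 0.627%, and body CYC replicate 1 held no scaffold peak.

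Set against the main arms per Mb of the interval that peaks spanned, head peaks were denser on chromosome 4 in all 6 lists and body peaks were sparser in all 4 tagged lists. The interval ran from 61679 to 1322978, or 1.26 Mb. The density ratio of chromosome 4 to the main arms was 3.59 and 1.32 for the CLK lists of heads, 8.41 and 3.68 for CYC, and 7.71 and 6.35 for mock. In bodies it was 0.232 and 0.164 for CLK, 0.331 and 0.594 for CYC, and 26.7 and 1.16 for mock. The tagged body lists were thus the only ones with a ratio below 1.

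**Figure D2:**
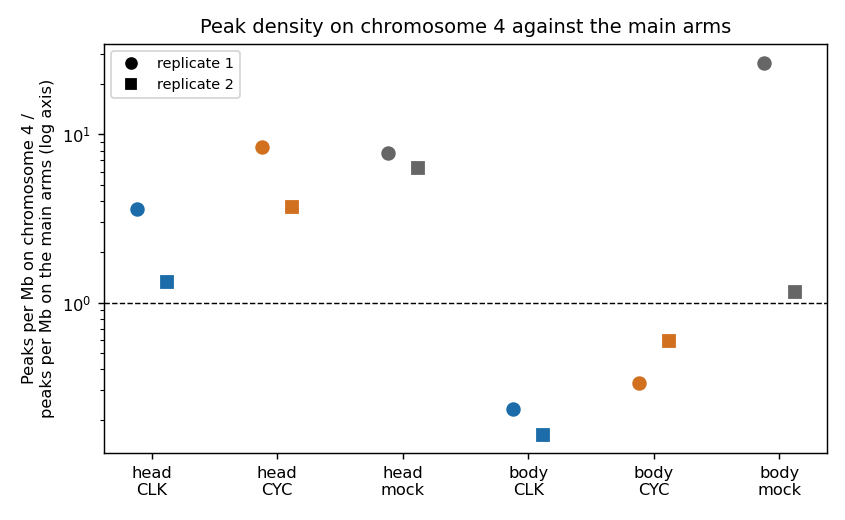
Peaks per Mb on chromosome 4 divided by peaks per Mb on the main arms, on a log axis, for each of the 12 lists. The dashed line marks equal density; the 6 head lists and both body mock lists lie above it, and the 4 tagged body lists lie below it, between 0.164 and 0.594.

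The 3 long head lists covered a sizeable part of the chromosome. Peaks of head CLK replicate 1 covered 9.96% of the spanned interval, those of CYC replicate 1 covered 19.5%, and those of mock replicate 1 covered 18.6%. On the main arms the same lists covered 2.82%, 2.36% and 2.46%. The midpoints of neighbouring chromosome 4 peaks in these lists lay a median of 635, 524.5 and 559 bp apart, against 1921, 2303.5 and 1881.5 bp on the main arms. The second replicates covered 1.61% (CLK), 4.24% (CYC) and 2.42% (mock) of chromosome 4, against 1.23%, 1.15% and 0.384% of the main arms.

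Averaged over the tissues, the chromosome 4 share was lower in tagged lists (2.30%) than in mock lists (8.52%), a difference of -6.22 percentage points. An exact two-sided permutation test within tissue gave p = 0.0356, which did not pass adjustment over the 20 tests made here (adjusted p = 0.178). Within heads the tagged lists averaged 4.26% ± 2.84 (SD, n = 4) and the mock lists 6.89% ± 0.972 (SD, n = 2). Within bodies the values were 0.350% ± 0.199 (SD, n = 4) and 10.2% ± 12.8 (SD, n = 2). Most of the averaged difference came from body mock replicate 1, without which it fell to -1.71 points (exact permutation p = 0.2). On log2(number of peaks + 1) in place of the share, the difference was -0.028 (exact permutation p = 0.964), while among peaks at or above the median second score it was -10.3 points (exact permutation p = 0.00444).

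CYC lists held a larger chromosome 4 share than CLK lists in each tissue, with no overlap between the factors. The head means were 2.53% ± 1.62 for CLK and 5.98% ± 3.12 for CYC, and the body means were 0.210% ± 0.0517 and 0.490% ± 0.194 (SD, n = 2 each). The averaged difference, CLK minus CYC, was -1.86 points. Its exact two-sided permutation p was 0.0556, the smallest that 36 arrangements allow, and 0.185 after adjustment. At or above the median first score the difference was -1.06 points (exact permutation p = 0.222). At or above the median second score it was -2.43 points (exact permutation p = 0.0556). With each list cut to the length of the shortest it was 0.

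Whether head and body shares differed depended on the scale and on the body mock lists. With all 12 lists the mean difference in percent was 1.51 points in favour of heads (exact two-sided permutation p = 0.694, adjusted p = 0.817). On the logit of the share it was 1.66 (exact permutation p = 0.0278), and on log2(number of peaks + 1) it was 5.35 (exact permutation p = 0.00926). In percent it turned to -1.49 points without body mock replicate 2 and was 4.52 points without body mock replicate 1 (exact permutation p = 0.00926). Over the 8 tagged lists alone, an alternative added after the values were seen, heads exceeded bodies by 3.91 points. Every tagged head list lay above every tagged body list there, and the exact permutation p was 0.0556.

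By the first score, chromosome 4 peaks tended to be weak in tagged lists. Their median relative rank in heads was 69.5 and 85.0 for CLK, 61.03 and 57.15 for CYC, and 52.0 and 42.8 for mock. In bodies it was 58.5 in both CLK lists, 67.1 and 53.2 for CYC, and 66.0 and 40.2 for mock. The mock lists were on average 13.5 points nearer the top (exact two-sided permutation p = 0.0756, adjusted p = 0.189). Ranked by the second score the difference was 19.1 points (exact permutation p = 0.0178). The tagged medians by that score were 55.0 and 58.9 for CLK and 48.3 and 38.3 for CYC in heads. In bodies they were 56.25 and 63.6 for CLK and 68.2 and 42.2 for CYC. The tendency thus did not hold in every tagged list by the second score.

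The best chromosome 4 peak of each head list stood near its top. It had a relative rank of 0.743 and 3.49 for CLK, 1.86 and 5.65 for CYC, and 0.0662 and 0.870 for mock. In bodies the best relative rank was 27.2 and 39.8 for CLK, 18.2 and 29.7 for CYC, and 19.4 and 6.32 for mock. The body values of mock replicate 1 and CYC replicate 1 were thus close. The best of many peaks lies nearer the top by number alone. Head lists held 64 to 989 chromosome 4 peaks and body lists 2 to 14, and the part of number in these best ranks was not tested. The top 10% of each list by the first score took in 2.18% and 4.69% of the chromosome 4 peaks of the CLK lists of heads, 4.25% and 1.64% of those of CYC, and 8.85% and 9.35% of those of mock. All 6 of these shares lay under the 10% that an even spread over ranks would give. In bodies no chromosome 4 peak of the 4 tagged lists or of mock replicate 1 was in the top 10%, and 1 of the 2 of mock replicate 2 was.

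Along chromosome 4 the 6 head lists shared much of a profile of full and sparse stretches, though not the fullest bin. The bin from 1000001 to 1100000 was the fullest in CLK replicate 1 (17.8% of its chromosome 4 peaks), CYC replicate 1 (14.4%) and mock replicate 1 (14.5%). It held 12.5%, 10.9% and 12.1% in the second replicates of CLK, CYC and mock. Their fullest bins began at 300001 for CYC (14.8%) and mock (13.1%). For CLK replicate 2 the bins that began at 100001 and 600001 were equally full (14.1%). The bin from 700001 to 800000 held between 0.546% and 3.13% in all 6 lists, and the one from 300001 to 400000 between 9.38% and 14.8%. This held for tagged and mock lists. In bodies the few peaks were scattered, except that 5 of the 14 peaks of mock replicate 1 lay between 1200001 and 1300000, and 3 of the 6 peaks of CLK replicate 1 lay between 800001 and 900000.

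**Figure D3:**
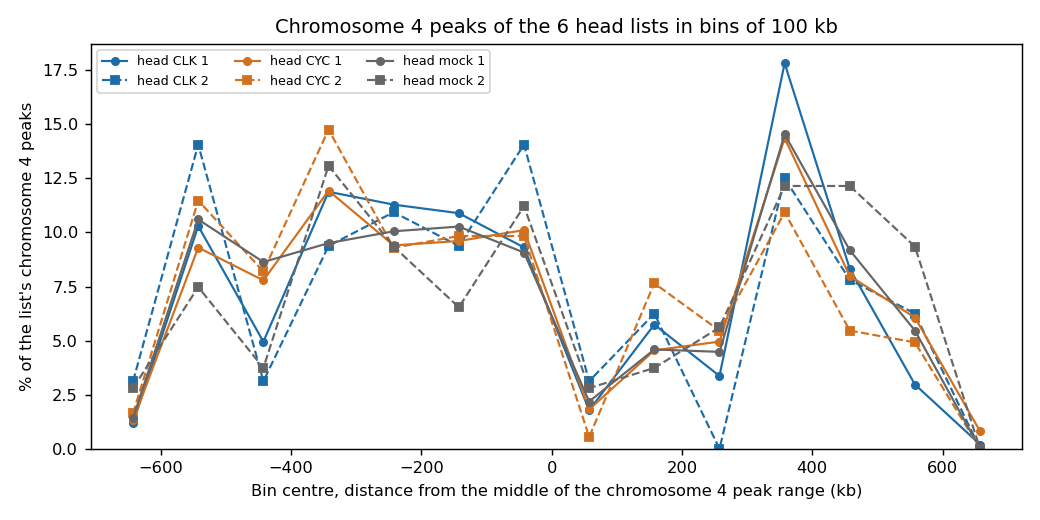
Percent of the chromosome 4 peaks of each head list that fell in each bin of 100 kb, plotted by the distance of the bin from the middle of the peak range. Each line is 1 of the 6 head lists. Tagged and mock lines dip together in the bin from 700001 to 800000, which held at most 3.13% of any list.

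Most chromosome 4 places that a tagged head list called were also called in untagged heads. Head CLK replicate 1 had a peak of either head mock list under 433 of its 505 chromosome 4 peaks (85.7%), against 54.0% of all its peaks. For CLK replicate 2 it was 60 of 64 (93.8%), against 42.1%. For CYC it was 687 of 989 (69.5%, against 61.5%) in replicate 1 and 132 of 183 (72.1%, against 42.4%) in replicate 2. All 4 shares were above the share over the whole list, by the least in CYC replicate 1.

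The longer head mock list, replicate 1, gave most of this overlap. Taken alone, it lay under 428 chromosome 4 peaks of CLK replicate 1 (84.8%, against 52.8% of the list), 59 of CLK replicate 2 (92.2%, against 39.7%), 671 of CYC replicate 1 (67.8%, against 60.0%) and 128 of CYC replicate 2 (69.9%, against 38.9%). Against mock replicate 2 alone the shares were 10.3% and 25.0% for CLK, where all peaks gave 4.17% and 6.03%, and 9.50% and 14.2% for CYC, where all peaks gave 5.22% and 7.82%. Each chromosome 4 share again exceeded that of the whole list. A crowded chromosome also gives more overlaps by position alone, and the part of crowding in these shares was not tested. In the other direction, a tagged head peak lay under 735 of the 915 chromosome 4 peaks of mock replicate 1 (80.3%, against 74.9% of the list) and 81 of the 107 of replicate 2 (75.7%, against 51.2%).

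CLK and CYC act as partners, and the overlap of their chromosome 4 peaks was read between all pairs of lists of a tissue. In heads, 419 of the 505 chromosome 4 peaks of CLK replicate 1 overlapped a peak of CYC replicate 1 (83.0%, against 57.0% of the list), and 463 of the 989 peaks of CYC replicate 1 overlapped one of CLK replicate 1 (46.8%, against 66.4%). In replicate 2 it was 28 of 64 for CLK (43.8%, against 37.5%) and 27 of 183 for CYC (14.8%, against 36.0%). Across replicate numbers, 117 of 505 peaks of CLK replicate 1 overlapped CYC replicate 2 (23.2%, against 19.6%) and 60 of 64 of CLK replicate 2 overlapped CYC replicate 1 (93.8%, against 57.4%). For CYC it was 82 of 989 of replicate 1 with CLK replicate 2 (8.29%, against 23.2%) and 98 of 183 of replicate 2 with CLK replicate 1 (53.6%, against 53.7%). The CLK shares lay above those of their whole lists and the CYC shares at or below them, and the CYC lists held more chromosome 4 peaks than the CLK lists of the same number. In bodies 3 of 6 peaks of CLK replicate 1 (58.6%) and 3 of 14 of CYC replicate 1 (36.3%) had a partner peak, and in replicate 2 it was 0 of 2 (33.8%) and 0 of 8 (30.4%). Across numbers, 2 of 6 of CLK replicate 1 (24.7%), 0 of 2 of CLK replicate 2 (56.9%), 0 of 14 of CYC replicate 1 (17.8%) and 2 of 8 of CYC replicate 2 (44.5%) had one.

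In bodies, chromosome 4 peaks were set against the body mock lists in the same way. None of the 6, 2, 14 and 8 chromosome 4 peaks of the tagged body lists (CLK replicates 1 and 2, CYC replicates 1 and 2) overlapped a body mock peak. The backgrounds over all peaks were 1.23%, 0.867%, 0.807% and 1.18%, and with so few peaks a count of 0 cannot be told apart from these rates. None of the 14 and 2 body mock peaks overlapped a tagged body peak either, where whole lists gave 24.7% and 20.0%. Most of the body peaks did fall on a head peak of some list: 6 of 6 for CLK replicate 1 (54.7% of all its peaks), 2 of 2 for CLK replicate 2 (66.3%), 10 of 14 for CYC replicate 1 (52.0%) and 8 of 8 for CYC replicate 2 (64.5%). In the body mock lists 13 of 14 (82.2%) and 2 of 2 (39.4%) did so.

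Between replicates of a group, the share of chromosome 4 peaks that recurred was below that of the whole list for head CLK replicate 1 and above it for head CYC replicate 2 and both head mock lists. Of the 505 peaks of head CLK replicate 1, 58 (11.5%) overlapped a replicate 2 peak, against 28.6% of its whole list. In the other direction it was 51 of 64 (79.7%, against 81.9%). For head CYC it was 181 of 989 (18.3%, against 20.9%) and 139 of 183 (76.0%, against 49.2%).

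The head mock lists shared chromosome 4 places as well. The overlap was 97 of 915 peaks of replicate 1 (10.6%, against 5.17%) and 79 of 107 of replicate 2 (73.8%, against 34.0%). In bodies no chromosome 4 peak of CLK or mock recurred in the other replicate, where the whole-list rates were 24.7% and 49.3% for CLK and 9.59% and 3.43% for mock. For body CYC 2 of 14 (19.6%) and 2 of 8 (56.6%) did.

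**Figure D4:**
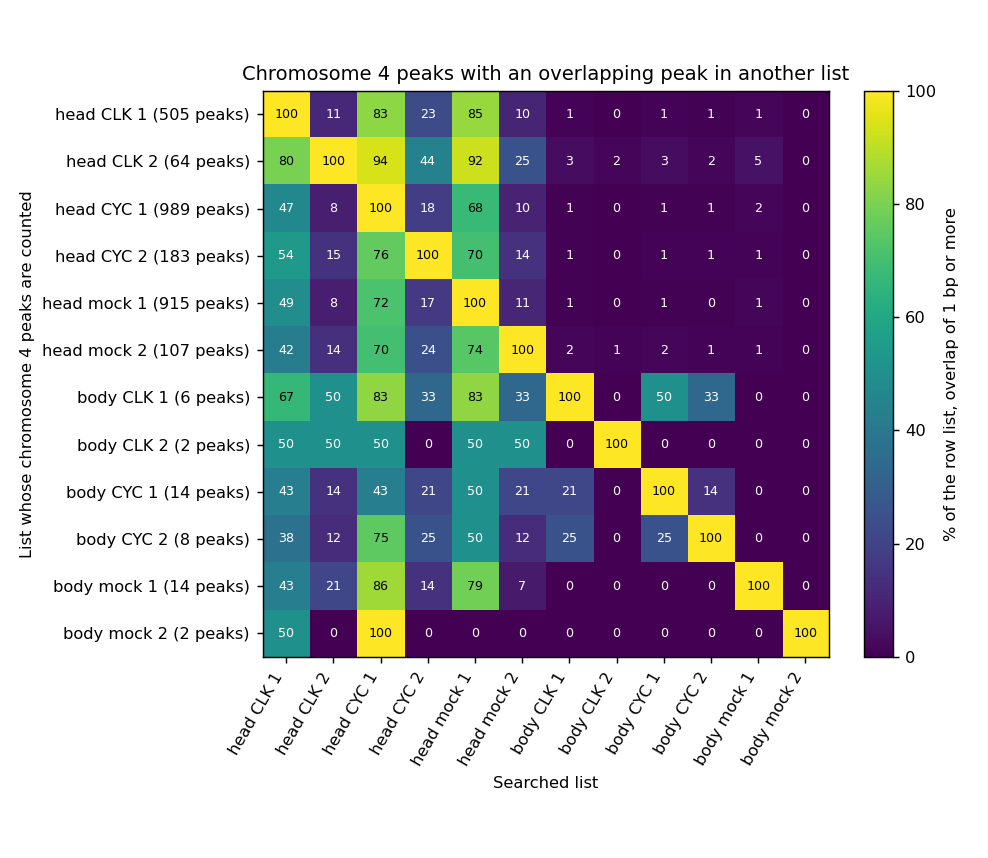
Percent of the chromosome 4 peaks of each list (rows) that overlapped by 1 bp or more a peak of each other list (columns). Lighter cells mark higher overlap. In the head rows, tagged and mock alike, the columns of the 3 long head lists are the lightest apart from the diagonal. Head CLK replicate 1 was overlapped at 83.0% by head CYC replicate 1 and at 84.8% by head mock replicate 1. Its own shorter second replicate overlapped it at 11.5%.

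Merging overlapping peaks of all lists gave 936 chromosome 4 regions. Peaks of the main arms were not merged, so region counts on chromosome 4 and the scaffolds have no main-arm share beside them. Of these, 404 had a peak in a single list, 138 in at least 4 lists and 19 in at least 6. By tissue, 898 were called in heads only, 5 in bodies only and 33 in both. Both replicates of at least 1 group had a peak in 190 regions: 121 for head CYC, 75 for head mock, 50 for head CLK, 2 for body CYC, and 0 for body CLK and body mock.

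Of the 144 regions with both replicates of a tagged group, 132 also held a mock peak. The other 12 had none, and 11 of these were head CYC and 1 head CLK. Whether this split is particular to chromosome 4 was not tested. This count rests on how peaks are joined: it was 38 when an overlap of at least 50% of each peak was required, and 3 when peaks under the median first score were dropped.

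The region with a peak in the most lists, 8, was chromosome 4 position 854581 to 855235. It was called in all 4 tagged head lists and in 3 of the 4 tagged body lists, with 1 mock list beside them. Its first score in heads was 18.27 and 19.37 for CLK, 9.5 and 10.33 for CYC, and 5.4 in mock replicate 1. In bodies it was 10.62 for CLK replicate 1 and 7.99 and 7.8 for CYC. The midpoints of the best peaks of the 3 body lists lay at 854747, 854750 and 854728. It was the best chromosome 4 peak of head CYC replicate 2, at rank 275 of 4848.

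The strongest chromosome 4 peak of both head CLK lists was a shared one, at 1166968 to 1167341. It stood at rank 103 in CLK replicate 1, with a first score of 118.74 and a second of 103.42, and at rank 162 in CLK replicate 2, with a first score of 39.01 and a second of 7.26. The head CYC lists had it at ranks 365 and 444, with first scores of 13.39 and 7.72. Head mock replicate 1 had it at rank 227, with a first score of 13.35. It was thus called in all 4 tagged head lists and in 1 untagged list, and in no body list.

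The 4 regions called in 7 lists all held mock peaks. The one at 352276 to 352669 had all 6 head lists and body mock replicate 1. Its first score was 82.6 in head CLK replicate 1 (rank 175), 26.87 in CLK replicate 2, 12.63 and 7.81 in CYC, 12.98 and 2.65 in head mock, and 3.73 in body mock. The CLK values were the highest there. At 134395 to 135532 the relative rank was best in head mock replicate 1 (2.21), followed by head CYC replicate 1 (5.97) and head mock replicate 2 (9.62). It was 22.8 in head CYC replicate 2, 24.1 and 58.9 in the CLK lists of heads, and 22.2 in body mock replicate 1. The regions at 368369 to 369231 and 1226583 to 1228151 were also called in all 6 head lists, the former with body CLK replicate 1 and the latter with body mock replicate 1.

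Among the 12 regions with both replicates of a tagged group and no mock peak, the best placed was 733616 to 733938, in the sparse stretch of the chromosome. It was called in head CLK replicate 1 at rank 1039 (first score 22.47, second 215.06), in CLK replicate 2 at rank 911 (12.57 and 18.4) and in CYC replicate 1 at rank 4255 (3.91 and 19.96). The second score of 215.06 was the highest of any chromosome 4 peak of that list. The region at 351902 to 352217 lay just beside the mock-bearing one above, with first scores of 4.89 in CLK replicate 1 and 4.52 and 3.88 in CYC. The regions at 153208 to 153625, 456509 to 456880 and 910619 to 910991 had first scores of at most 3.47 in every list that called them.

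Some places recurred in untagged flies alone. Both head mock lists and no tagged list called 9 chromosome 4 regions. The best placed lay at 679889 to 680184, with first scores of 7.23 and 4.77 in mock replicates 1 and 2. At 1079706 to 1080089 the scores were 2.74 and 5.19, and at 1225476 to 1225842 they were 2.81 and 4.98. The best chromosome 4 peak of head mock replicate 1, at 1292442 to 1292706, had a first score of 69.63 at rank 9, and head CLK replicate 1 had an overlapping peak at rank 1241 with 19.53.

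A place outside the head tagged lists recurred in bodies. At 1049105 to 1049426 body CLK replicate 1 had its best chromosome 4 peak, at rank 663 of 2433 with a first score of 12.26, and body CYC replicate 1 had its own best at rank 723 of 3967 with 11.42. Body CYC replicate 2 had it at rank 455 of 1276 with 7.49. The only head list that called it was mock replicate 1, at rank 4306 with 4.1. The region at 1288515 to 1289434 held the best chromosome 4 peak of body CYC replicate 2, at rank 380, and also peaks of head CYC replicate 1, head mock replicate 1 and body mock replicate 1.

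The Het scaffolds took small shares of the tagged lists and larger shares of the mock lists. In heads, CLK held 47 and 3 scaffold peaks (0.342% and 0.0651%), CYC 74 and 9 (0.612% and 0.186%), and mock 51 and 26 (0.422% and 1.51%). In bodies, CLK held 6 in each replicate, which were 0.247% (95% interval 0.0906 to 0.536%) and 0.520% (0.191 to 1.13%). CYC held 0 and 6, the latter 0.470% (0.173 to 1.02%). Mock held 10 and 12, or 13.7% (6.77 to 23.8%) and 6.86% (3.59 to 11.7%). The 0 of 3967 peaks in body CYC replicate 1 allows a share of up to 0.0756% by the limit of 3 peaks. All tagged body lists lay below both body mock lists, and head CYC replicate 1 was the only tagged head list above a head mock list.

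The averaged scaffold share was lower in tagged lists (0.305%) than in mock lists (5.62%), a difference of -5.32 percentage points. The exact two-sided permutation p was 0.00889 and did not pass adjustment over the 20 tests (adjusted p = 0.0617). In heads the means were 0.301% ± 0.236 (SD, n = 4) and 0.964% ± 0.767 (SD, n = 2). In bodies they were 0.309% ± 0.238 (SD, n = 4) and 10.3% ± 4.84 (SD, n = 2). The body lists supplied most of the average, and the body mock lists are the 2 shortest of all, so a few peaks make a large share there. On log2(number of peaks + 1) the difference was -1.21 (exact permutation p = 0.209), and it was -0.272 points for peaks at or above the median second score (exact permutation p = 0.2). It was larger with lists cut to the shortest length, at -14.7 points (exact permutation p = 0.00444), and among peaks at or above the median first score, at -10.05 points (exact permutation p = 0.00889).

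CLK and CYC lists differed by -0.023 points in scaffold share (exact two-sided permutation p = 0.889), with the sign depending on which list was left out. Heads held less than bodies, by -3.11 points (exact two-sided permutation p = 0.167). Over the 8 tagged lists alone the difference was -0.00796 points (exact permutation p = 1). That direction turned on the scale used: on log2(number of peaks + 1) heads were higher by 2.00 (exact permutation p = 0.0463).

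XHet, which stands for X-linked heterochromatin, supplied 159 of the scaffold peaks in 10 lists, and most of them lay in 1 place. Joining XHet peaks with gaps of at most 5000 bp, a distance chosen after the values were seen, put 122 of them in a cluster near the right end of the peak range, from 183918 to 202959. A cluster at the left end, from 648 to 8030, held 22 more. The right-end cluster was called in 9 lists of both tissues, tagged and mock, and was missing from head CLK replicate 2, head CYC replicate 2 and body CYC replicate 1. The left-end cluster was called only in head CLK replicate 1 (10 peaks), head CYC replicate 1 (2) and head mock replicate 1 (10).

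The clusters had opposite score patterns. In the right-end cluster the first score ran from 2.13 to 92.28 with a median of 39.4, and the second from 2.03 to 10.5 with a median of 3.03. The first exceeded the second in 116 of 122 peaks. In the left-end cluster the first score ran from 2.05 to 17.5 and the second from 4.71 to 57.25, and the first exceeded the second in 0 of 22. Over whole lists the share of peaks with the higher first score ran from 29.4% in head CYC replicate 1 to 86.5% in body CLK replicate 2.

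**Figure D5:**
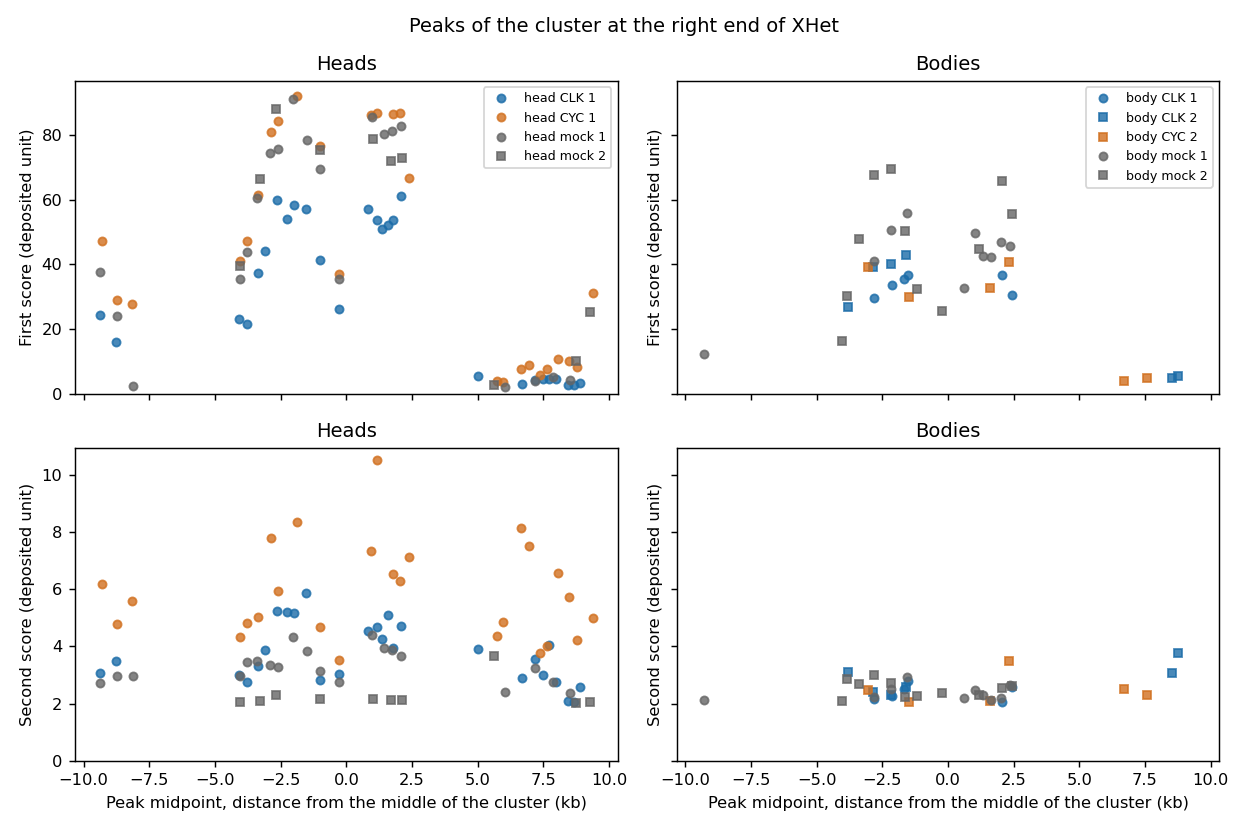
First score (upper panels) and second score (lower panels) of the XHet peaks of the right-end cluster in heads and bodies, against the distance of the peak midpoint from the centre of the cluster in kb. Each point is a peak of 1 list; first scores up to 92.28 gather in the middle stretch in tagged and mock lists alike, while second scores stay at or below 10.5.

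By the first score the right-end cluster gave the best peaks of every mock list. Its best rank was 1 in all 4 of them, 20 in head CYC replicate 1, 269 in head CLK replicate 1, 82 and 28 for CLK in bodies, and 47 in body CYC replicate 2. Tagged lists thus held the same place, with a best peak further down by that score. The median relative rank of the cluster by the first score was 0.103 and 0.319 in head mock, 0.749 in head CYC replicate 1 and 6.23 in head CLK replicate 1. In bodies it was 6.25 and 2.87 in mock, 3.74 and 3.69 in CLK, and 4.86 in CYC replicate 2. The tagged body medians thus lay between those of the body mock lists. By the second score its best rank was 6482 of 12082 and 393 of 1726 in head mock, and 49 of 73 and 117 of 175 in body mock. Its median relative rank by that score was 71.1, 89.2, 87.5 and 81.0 in these 4 lists. In head CLK replicate 1 and head CYC replicate 1 it was 72.4 and 41.3. In bodies it was 88.1 and 54.4 for CLK and 76.7 for CYC replicate 2. The highest first score in it was 91.18 and 88 in head mock, 92.28 in head CYC replicate 1 and 61.12 in head CLK replicate 1. In bodies it was 55.87 and 69.68 in mock, 36.9 and 42.96 in CLK, and 40.63 in CYC replicate 2.

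Its high scores lay in the middle stretch, from 189235 to 195995, which held 83 of the 122 peaks in all 9 lists. The first score there ran from 16.21 to 92.28 with a median of 50.74. From 198338 to 202959 there were 30 peaks in 6 lists with a median of 4.75, and from 183918 to 185440 there were 9 peaks in 4 lists with a median of 24.44. These stretches are separated by gaps of more than 2000 bp, a distance also chosen after the values were seen.

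The region at XHet position 189919 to 190951 was called in all 9 lists, more than any region of chromosome 4. Its first score was 75.9 and 88 in head mock, 59.89 in head CLK replicate 1, 84.42 in head CYC replicate 1, 41.14 and 67.57 in body mock, 29.64 and 39.15 for CLK in bodies, and 39.28 in body CYC replicate 2. The head mock and head CYC values were the highest. Those at 191060 to 192098 and 193933 to 195995 were called in 8 lists each. The region at 189235 to 189794 was called in 6 and that at 192116 to 192566 in 5. None of the 30 XHet regions had both replicates of a tagged group without a mock peak.

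Overlap with mock peaks was high on XHet. In heads, a mock peak lay under 37 of 41 XHet peaks of CLK replicate 1 (54.0% of all its peaks) and 27 of 30 of CYC replicate 1 (61.5%). In bodies it lay under 6 of 6 peaks of CLK replicate 1 (1.23%), 4 of 6 of CLK replicate 2 (0.867%) and 4 of 6 of CYC replicate 2 (1.18%). The body counts lay above the whole-list rates, whereas no chromosome 4 peak of the same lists overlapped a body mock peak. Neighbouring peaks of the cluster share 1 place and are not independent of each other.

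The XHet share was lower in tagged lists (0.226%) than in mock lists (5.22%), a difference of -4.99 points (exact two-sided permutation p = 0.00444, adjusted p = 0.0617). All 4 tagged lists lay below both mock lists in each tissue. The exact permutation p of 0.00444 is the smallest that 225 arrangements allow. In heads the order rested on a narrow gap. CLK replicate 1 had 41 XHet peaks, or 0.299% (exact interval 0.214 to 0.405%). Mock replicate 1 had 38, or 0.315% (0.223 to 0.431%). These intervals overlap, so counting error could turn that order. The other head shares were 0.0217% (CLK replicate 2), 0.248% and 0% (CYC) and 0.579% (mock replicate 2). In heads the shares averaged 0.142% ± 0.153 (SD, n = 4) and 0.447% ± 0.187 (SD, n = 2). For peaks at or above the median second score the difference was 0.0185 points, with the opposite sign (exact permutation p = 0.8).

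3RHet, from the right arm of chromosome 3, was called in heads only: its 68 peaks came from all 6 head lists and from none of the 6 body lists. CYC held 31 and 8, CLK 5 and 2, and mock 10 and 12. The mean share was 0.213% in heads and 0 in bodies (exact two-sided permutation p = 0.00926, adjusted p = 0.0617). It was 0.111 points without head mock replicate 2 and 0.315 without head mock replicate 1, and without either body mock list the exact permutation p was 0.194. Over the tagged lists alone it was 0.125 points (exact permutation p = 0.0556). The limit of 3 peaks allows a share of up to 0.0756% in the longest body list and up to 4.11% in the shortest.

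No first score on 3RHet exceeded 10.13, and head mock replicate 2 gave both regions named first the best relative rank. In that list the median first score was 4.885 on 3RHet and 3.24 over all peaks, and the median relative rank on 3RHet was 14.1. In the other head lists that median rank ran from 47.1 in CYC replicate 1 to 93.9 in CLK replicate 1. The region at 641282 to 641855 had first scores of 2.01 in head CLK replicate 1, 5.91 in CYC replicate 1, 2.35 in mock replicate 1 and 7.37 in mock replicate 2, at relative ranks of 99.2, 15.9, 81.2 and 2.43. The region at 1954238 to 1954897 was called in both head CYC and both head mock lists, with first scores of 2.99 and 3.02 in CYC and 2.06 and 4.68 in mock, at relative ranks of 54.5, 48.6, 95.9 and 16.5. Regions at 767255 to 767644 and 1953599 to 1953918 were called in both head CYC lists and in no mock list. Their first scores ran from 2.14 to 3.9.

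3LHet, from the left arm of the same chromosome, held 19 peaks in 5 lists, of which 10 were in head CYC replicate 1. Its share was 0.0113% in tagged and 0.207% in mock lists, a difference of -0.196 points (exact two-sided permutation p = 0.0444, adjusted p = 0.178). Leaving out body mock replicate 2 gave -0.0529 (exact permutation p = 0.133) and leaving out body mock replicate 1 gave -0.339 (exact permutation p = 0.0267). No 3LHet region was called in both replicates of a group. Yet 1 region joined lists of both tissues: 2163536 to 2163824 ranked 3 in head mock replicate 2 with a first score of 76.84, 122 in head CYC replicate 1 with 30.07, and 11 in body mock replicate 2 with 21.96. Its midpoints lay within 6 bp of each other, and its second scores were only 2.05, 3.07 and 2.1. The region at 159967 to 160255 was alike, with 34.67 in head mock replicate 2 and 21.36 in head CYC replicate 1 at the same midpoint. In contrast, 206920 to 207626 was called in the 3 long head lists with first scores of at most 4.39.

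YHet held 4 peaks, all in head CYC: 3 in replicate 1 and 1 in replicate 2. The region at 206941 to 207235 was called in both, with midpoints 4 bp apart and first scores of 3.83 and 2.01. The other peaks, at 213733 to 213989 and 341102 to 341358, were called in replicate 1 alone with first scores of 2.86 and 2.76. The labels do not give the sexes in the pools, and shares of males in them cannot be told apart from other sources of these calls.

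Over all 4 scaffolds there were 74 regions, of which 23 had a peak in 1 list, 12 in at least 4 lists and 4 in at least 6. Both replicates of a group had a peak in 17 regions: 11 for head mock, 5 for head CYC, 3 for body mock, 2 for body CLK, 1 for head CLK and 0 for body CYC. By count, head mock came first in heads and body mock in bodies. On XHet lay 6 of the head mock regions and all of the body mock and body CLK ones, and regions of the right-end cluster share 1 place. Main-arm peaks were not merged, so no whole-list share stands beside these counts. Of the 8 regions with both replicates of a tagged group, 3 had no mock peak, and all 3 were head CYC regions on 3RHet or YHet. Whether this split is particular to the scaffolds was not tested. None of the 20 permutation tests on shares and ranks had an adjusted p under 0.05, and the smallest adjusted p was 0.0617.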

How the data were processed

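Reads were mapped with Bowtie 0.12.7 to dm3, per the submitters' processing notes. The peak caller is not given in the sources used here. Of the 24 libraries, 12 are pull-downs with a deposited peak list, each paired by name with its input. Each list gives peak positions and 2 unnamed values per peak, and each of these was used as a score exactly as the authors deposited it. Coordinates are printed as deposited; whether starts count from 0 or 1 is not stated. The annotation at hand is of another build, so no gene names or sequences are given.

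Ranks within a list follow the first score, and peaks sharing 1 bp or more, in any list, were joined into regions. Shares and median ranks per list were compared by exact two-sided permutation tests, with tissue as the stratum when tag or factor was compared and with factor (mock included) as the stratum when the tissues were. Benjamini-Hochberg adjustment ran over 20 tests. The regions named are those in the most lists (5 each on chromosome 4 and XHet, 3 on each other scaffold), the 5 best ranked in both replicates of a tagged group with no mock peak and the 5 best in both mock lists of a tissue with no tagged peak, and the best peak of each list; the best of these are given with values. The members and rules were chosen with earlier results of these data known. Alternatives used other scores, thresholds, scales and overlaps, a replicate block, and each list left out in turn. The scripts were tested on simulated data. Python 3.11.15, numpy 2.4.6, pandas 2.3.3, scipy 1.17.1 and matplotlib 3.10.9 were used.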

Additional observations from a re-analysis of the deposited data

How the results depend on the processing

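Replicate numbers are not shown to pair the libraries: over 1010 regions and 15 pairs of groups, the correlation of deviations ran from -0.109 to 0.211 (median -0.0191), and 1 pair exceeded 0.1. With the replicate number as a block the differences kept their values; the exact permutation p was 0.037 for the chromosome 4 share and 0.0247 for the scaffold share of tagged minus mock, and 0.0741 for the 3LHet share, which no longer passed 0.05.

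Tagged minus mock, on log2(number of peaks + 1), was -0.028 for chromosome 4 and -1.21 for the scaffolds. At or above the median second score it was -0.272 points for the scaffolds, 0.0185 for XHet and 0.00317 for 3LHet, the last 2 with the sign turned. Leaving out each list in turn gave -10.7 to -1.71 points for chromosome 4 and -7.03 to -3.61 for the scaffolds; for 3LHet it gave -0.339 to -0.0529 (p 0.0267 to 0.133, exact permutation); for 3RHet the range was -0.285 to 0.0213, the latter without head mock replicate 2. On the logit scale YHet turned to -1.31. The chromosome 4 rank difference was 19.1 by the second score (7.05 to 19.9 leaving out lists), and the scaffold rank difference turned from 16.1 to -10.5 (7.38 to 24.9 leaving out lists).

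Head minus body for chromosome 4 was 1.66 on the logit scale (exact permutation p = 0.0278), 5.35 on log2(number of peaks + 1) (exact permutation p = 0.00926), -2.05 points with lists cut to the shortest and -1.49 to 4.52 leaving out lists. For the scaffolds it turned positive at or above the median second score (0.485), with the shortest length (2.97) and on log2 numbers (2.00), and was -4.25 to -1.97 leaving out lists. XHet gave 0.140, 1.60 and 0.77 under the same settings, and 3LHet 0.0195, 0.457 and 1.30. 3LHet ran from -0.133 to 0.0578 leaving out lists, turning without body mock replicate 2, and also turned over tagged lists alone (0.0225, with or without the block). YHet turned to -1.65 on the logit scale. 3RHet gave 0.111 to 0.315 leaving out lists and 0.125 over tagged lists alone.

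CLK minus CYC was -2.96 to -0.761 for chromosome 4 leaving out lists. For the scaffolds it was 0.00468 at or above the median first score, 0.41 on the logit scale, 0.21 on log2 numbers and -0.141 to 0.0941 leaving out lists. XHet turned to -0.0356 by the second score and -4.11 at the shortest length, and ran from -0.0253 (without body CYC replicate 1) to 0.210 leaving out lists. 3LHet ran from -0.0395 to 0.00182 (without head CYC replicate 1).

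At or above the median first score, chromosome 4 regions in both replicates of a group fell from 190 to 44 and those in a tagged group with no mock peak from 12 to 3; scaffold counts fell from 17 to 6 and from 3 to 0. With a 50% overlap the 12 became 38. The cause was not tested for any of these changes. List length sets what could be called, and depth is unknown.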
